A study of Mus musculus with 8 samples.

Results

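The genes described here are the replication-dependent histone genes of the mouse, as they were measured in notochord-derived cells (NDCs) before and after the notochord becomes the nucleus pulposus (NP) of the intervertebral discs. Members were the rows of the count files whose gene symbol begins with Hist1h, Hist2h, Hist3h or Hist4h. Of 43346 gene rows, 67 had such a symbol, 3 of them were pseudogenes and were left out, and 64 members remained: 6 of type H1, 18 of H2A, 15 of H2B, 12 of H3 and 13 of H4. By position, 52 lie in the Hist1 cluster on chromosome 13, 9 in Hist2 on chromosome 3, 2 in Hist3 on chromosome 11 and 1 (Hist4h4) on chromosome 6.

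All 8 samples came from Shh-cre;ROSA:YFP mice, in which Cre driven from the Shh locus leaves cells that express Shh, and their descendants, marked by YFP. The embryonic day 12.5 (E12.5) group was 4 litters (NDP10.2, NPD3, NPD4 and NPD9.2), each a pool of whole notochords dissected free and put straight into TRIzol, with no sort. The postnatal day 0 (P0) group was another 4 litters (NPD26, NPD27, NPD28 and NPD30), each a pool of NP cells dissociated mechanically, strained and sorted for YFP. Stage and isolation therefore changed together and cannot be told apart. Both groups carry the same transgenes, and the labels name no other allele or treatment.

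Core histones H2A, H2B, H3 and H4 wrap DNA into nucleosomes, and the linker histone H1 binds where DNA enters and leaves. Most of their genes sit in clusters, are transcribed mainly while DNA is being copied, and make mRNAs that end in a short stem-loop, held by the protein Slbp, in place of a poly(A) tail. A few cluster genes, Hist1h1c, Hist1h2bc and Hist2h2be among them, are also known to give polyadenylated mRNA in cells that have stopped dividing. Outside the clusters lie the replacement histone genes. Some of these, such as H3f3b and H2afz, are expressed through the whole cell cycle.

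Reads counted on genes numbered 4442775 to 7180221 per litter at E12.5 and 6371842 to 8904050 at P0. Between 26.3% and 33.7% of the reads tallied in a litter mapped to more than 1 place and were not counted. Reads that fell on more than 1 gene made up 16.3% in NDP10.2 and 17.5% in NPD9.2, against 10.6% to 11.6% in the other E12.5 litters and 7.1% to 10.5% at P0. Values are CPM, counts per 1000000 counts of the library after scaling by edgeR's TMM method, and 3 counts equal 0.337 to 0.675 CPM before that scaling, for counting error only. The labelled tissue was checked on 9 notochord and NP markers. T, the brachyury gene, lay between 241.5 and 942 CPM before birth and between 574 and 2323 CPM after it, and did not pass edgeR's test between the stages at an adjusted p under 0.05. Shh, whose locus drives the Cre, was lower at P0, with 420 to 1348 CPM before birth and 0.157 to 11.8 CPM after it. Car3, Krt19 and Cd24a were higher at P0, and Foxa2, Krt8 and Krt18 did not pass. Noto, lost early in the notochord, was under 0.5 CPM in every litter and was not tested.

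The 3′ ends of the transcripts show what sets the family apart, so they are given for members whose values are described next. The longest Gencode M21 transcript of each gene was searched for the histone stem-loop. The pattern lay within the first 1000 bases of the transcript in 42 of the 64 members (65.62%) and in 143 of 21834 other protein-coding genes (0.65%). In the sites below, 5′ to 3′ and written as DNA, capitals mark the stem-loop. The H4 genes, and no others, held forms whose stem reads GGCCCT or GGTCCT on its 5′ side, where those of the other types read GGCTCT.
Hist1h1c (H1): tccaaaaGGCTCTTTTCAGAGCCaccactc
Hist1h1e (H1): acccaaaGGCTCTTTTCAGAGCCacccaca
Hist2h2ac (H2A): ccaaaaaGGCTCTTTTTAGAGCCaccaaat
Hist1h3c (H3): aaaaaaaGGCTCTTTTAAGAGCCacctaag
Hist1h4d (H4): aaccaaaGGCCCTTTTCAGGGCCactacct
Hist1h4i (H4): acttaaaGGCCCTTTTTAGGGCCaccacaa

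Some members are annotated to run on past this point, to an end with the polyadenylation signal AATAAA. The Hist1h1c transcript continues for 840 bases after its stem-loop. In Hist2h2be no stem-loop pattern was found in a transcript of 2620 bases. In that of Hist1h2bc, 1156 bases long, neither the pattern nor an AATAAA within 40 bases of the end was found. Of 8 tested members with AATAAA within 40 bases of the annotated end, 4 were lower at P0 in the test below and none was higher. Of all 38 tested members, 19 were lower. The last 30 bases of 3 transcripts with this signal near the end are shown because they are ends of the other kind, with the signal in capitals.
Hist1h1c: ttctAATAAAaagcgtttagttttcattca
Hist2h2be: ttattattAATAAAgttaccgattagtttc
Hist3h2ba: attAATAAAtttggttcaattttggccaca

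Near-identical coding sequences limit what can be counted. For each member the longest transcript was cut into all windows of 100 bases, the read length, and the share found in no other gene was taken. The 8 members with no read in any litter (Hist1h2ao, Hist1h2ap, Hist1h2bq, Hist1h2br, Hist2h2aa1, Hist2h2aa2, Hist2h3b and Hist2h3c1) had 0% to 14.2% of their windows unique. Their level cannot be read from these counts. A further 18 members had 1 to 66 reads over the 8 litters and did not pass the filter on low counts. Among them the testis-type genes Hist1h1t, Hist1h2aa and Hist1h2ba had 18, 1 and 22 reads, with 72.6% to 100% of their windows unique. The 38 members that passed had 20.7% to 100% of their windows unique, with a median of 70.9%.

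**Figure D1:**
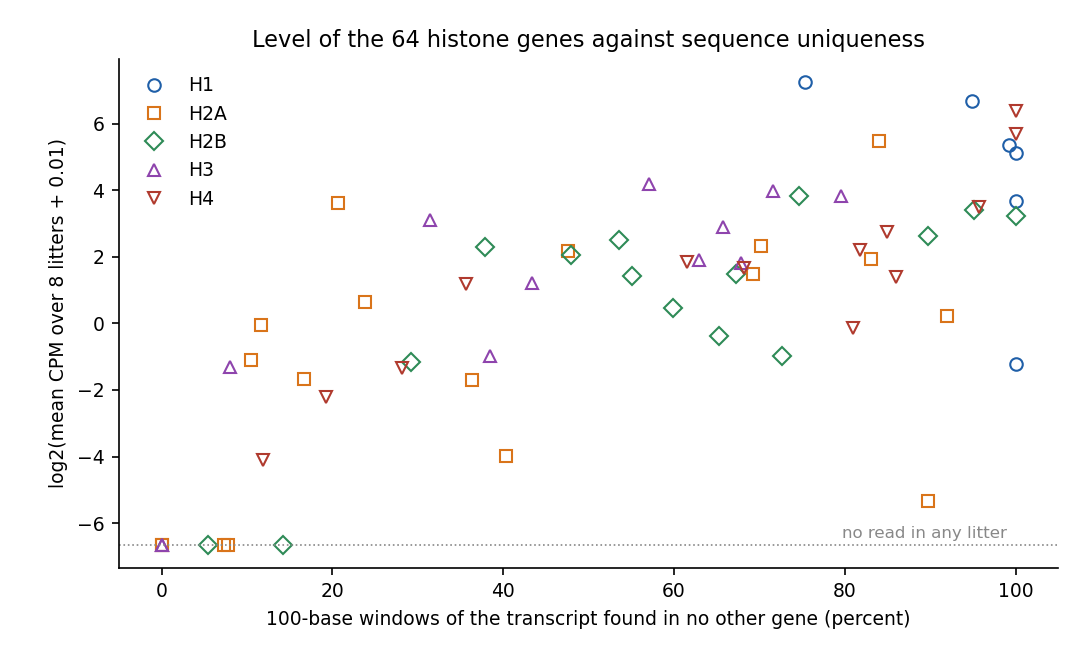
Mean level of each of the 64 members over the 8 litters (vertical axis, log2 scale) against the percent of its 100-base windows found in no other gene (horizontal axis), 1 symbol per gene and 1 shape per histone type. The 8 genes with no read lie on the dotted line, all at 14.2% or below.

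Abundance of the histone genes was compared between P0 and E12.5 with edgeR's quasi-likelihood test over the 15467 genes that passed the filter, and p-values were corrected over all of them (Benjamini-Hochberg). Of the 38 members tested, 19 were lower at P0 at an adjusted p under 0.05, where 12.0% of all genes tested were lower. Only 1, Hist1h2bc, was higher, where 16.0% of all genes tested were higher. The other 18 did not pass. The median log2 fold change (P0 over E12.5) was -1.31 over the tested members and 0.04 over all genes tested. The sign was negative in 33 of the 38, and these 33 were negative in every fit without 1 litter in which they were tested, 7 such fits for Hist1h2ag and 8 for each of the others.

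The filter favours genes seen at one stage: 21 of the 38 members reached its limit of 1.54 CPM in all 8 litters, and 11 of those 21 were lower at P0. Another 15 reached it in all E12.5 litters but not in all P0 litters. The stages did not overlap, with E12.5 the higher, in 17 of the 38 members, against 14.4% of all genes tested. Fewer cells with a histone mRNA and less of it per cell cannot be told apart in these pooled samples.

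The count of lower members changed with the litters included. It was 10 without NDP10.2, 9 without NPD9.2, 9 without NPD26 and 10 without NPD27, and with both NDP10.2 and NPD9.2 left out it was 2 (Hist1h2af and Hist1h3e), with 2 E12.5 litters remaining. The median was then -1.02, and 32 of the 33 members kept a negative sign, Hist1h4f being the exception. Over all genes, the share called fell to 15.2% in that fit from 27.9%. Those called lower in all 8 fits without 1 litter were Hist1h1d, Hist1h2af, Hist1h2ak, Hist1h2bl, Hist1h2bn, Hist1h3c, Hist1h3d and Hist1h3e.

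**Figure D2:**
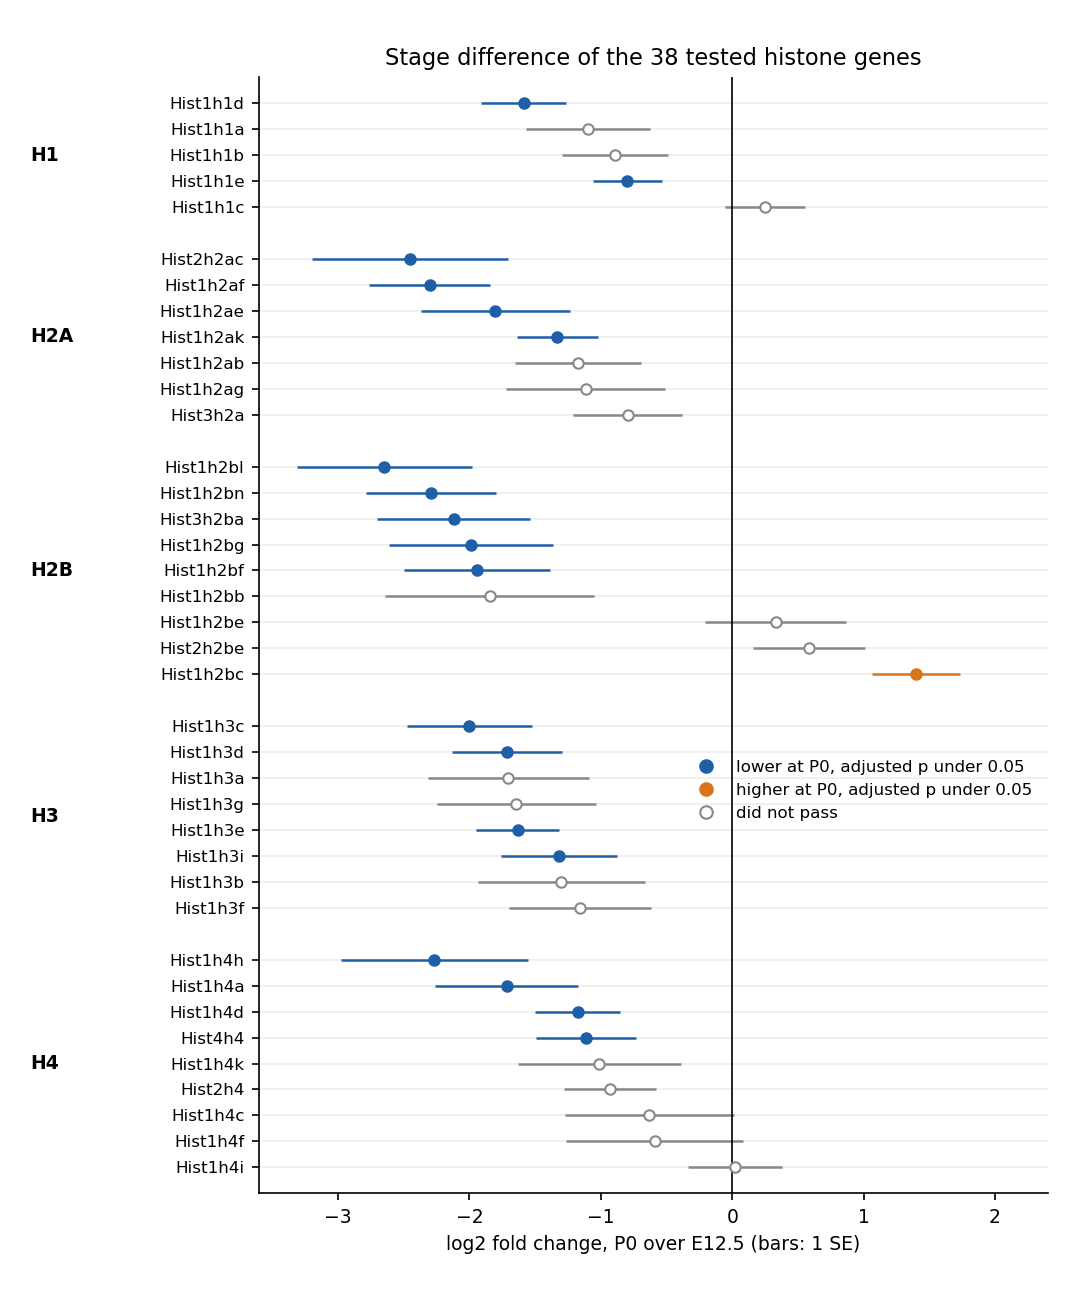
Log2 fold change, P0 over E12.5, of the 38 tested members (bars, 1 SE), grouped by histone type and ordered by size. Filled points passed at an adjusted p under 0.05: 19 lie to the left of 0 and Hist1h2bc alone to the right.

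Among the linker histones, Hist1h1d and Hist1h1e fell and Hist1h1c did not pass the test. Hist1h1d, which encodes H1.3 (chr13:23553262-23560686, plus strand), had 63.7, 55.4, 41.1 and 87.3 CPM in NDP10.2, NPD3, NPD4 and NPD9.2, and 17.6, 17.02, 32.6 and 14.9 CPM in NPD26, NPD27, NPD28 and NPD30. The stages did not overlap, and the log2 fold change was -1.59 ± 0.32 (SE, edgeR adjusted p = 0.00443). Hist1h1e, which encodes H1.4 (chr13:23620629-23622558, minus strand), took the most reads of any member, 192 ± 39.4 CPM (SD, n = 4) in the embryonic litters against 110.4 ± 32.8 CPM after birth. NPD28, at 158 CPM, lay above the lowest E12.5 litter, at 147 CPM. Hist1h1e shares 496 bases with other genes annotated in Gencode M21, Hist1h2be among them, and 75.3% of its windows were unique, so its reads are less certain. Its log2 fold change of -0.80 ± 0.26 (SE, edgeR adjusted p = 0.0428) kept its call in 2 of the 8 fits without 1 litter, those without NPD4 and without NPD28.

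Hist1h1c, which encodes H1.2 (chr13:23738808-23740367, plus strand), had 129, 82.2, 51.5 and 115 CPM before birth and 85.9, 103.5, 114 and 145 CPM after it, with litters in the order given above. The litters of the 2 stages interleaved, with a log2 fold change of 0.25 ± 0.30 (SE, edgeR adjusted p = 0.578). Hist1h1a and Hist1h1b, the genes of H1.1 and H1.5, had log2 fold changes of -1.10 ± 0.47 and -0.89 ± 0.40 (SE, edgeR adjusted p = 0.106 and 0.123). Within H1, the share of reads on Hist1h1c was 22.6 ± 5.43% at E12.5 and 41.4 ± 7.84% at P0 (SD, n = 4), and that on Hist1h1d was 14.9 ± 0.788% and 7.40 ± 1.69%. Neither pair of ranges overlapped. In H1, 2 of 5 tested genes fell and none rose. Here and for the types below, the shares over all genes tested were 12.0% lower and 16.0% higher.

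All 7 tested H2A genes had negative values, and 4 fell. All 7 overlap another gene annotated in Gencode M21, which may lower the certainty of their counts. Whether the authors' earlier annotation held those genes was not checked. Hist1h2ak (chr13:21753435-21753827, minus strand) held 56.0 ± 3.71% of H2A reads at E12.5 and 60.9 ± 5.03% at P0. It had 75.7, 38.2, 52.1 and 92.2 CPM at E12.5 and 19.2, 24.2, 34.6 and 24.4 CPM at P0. Every P0 litter lay below every E12.5 litter, with a log2 fold change of -1.33 ± 0.31 (SE, edgeR adjusted p = 0.00858). Hist1h2af, where 20.7% of the windows were unique, went from 20.3 ± 11.9 to 4.07 ± 1.70 CPM (SD, n = 4), a log2 fold change of -2.30 ± 0.46 (SE, edgeR adjusted p = 0.00406).

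Hist2h2ac (chr3:96220361-96220880, minus strand) had the largest fall of the type, from 9.67, 4.49, 3.63 and 8.12 CPM to 1.10, 0.144, 2.83 and 0.455 CPM. In NPD27 and NPD30 this is at or under 3 counts. The log2 fold change of -2.45 ± 0.74 (SE, edgeR adjusted p = 0.0304) kept its call in 3 of the 8 fits without 1 litter, those without NPD3, NPD4 or NPD28. Hist1h2ae also fell, by 1.80 on the log2 scale, with its call lost without NDP10.2, NPD9.2, NPD26, NPD27 or NPD30. Hist3h2a, the H2A gene least changed, had 6.30 ± 2.45 and 3.64 ± 0.428 CPM (SD, n = 4, log2 fold change -0.80 ± 0.42 SE, edgeR adjusted p = 0.182).

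The H2B genes split. Of 9 tested, 5 fell, 1 rose and 3 did not pass, and the spread from lowest to highest log2 fold change was the widest of any type, from -2.65 to 1.40. Hist1h2bc (chr13:23684199-23692908, plus strand) had 11.8, 5.46, 5.44 and 8.36 CPM at E12.5 and 26.1, 19.8, 16.0 and 19.6 CPM at P0. All P0 litters lay above all E12.5 litters, a fold of 2.64 (log2 fold change 1.40 ± 0.34 SE, edgeR adjusted p = 0.00998). It passed in all 8 fits without 1 litter and in the fit without NDP10.2 and NPD9.2. It was the only member with P0 wholly above E12.5, as were 15.5% of all genes tested. Its share of H2B reads was 10.6 ± 3.56% at E12.5 and 39.7 ± 10.9% at P0. Of its windows 74.6% were unique, and its gene version differs from that in Gencode M21.

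Hist1h2bl (chr13:21715763-21716143, minus strand) had the largest fall of all members, from 11.8, 4.49, 4.59 and 13.03 CPM to 0.157, 1.44, 2.12 and 1.52 CPM. The stages did not overlap (log2 fold change -2.65 ± 0.66 SE, edgeR adjusted p = 0.0125), and the value in NPD26 rests on a single read. Only 37.9% of its windows were unique, and 47.9% of those of Hist1h2bn. Hist1h2bn, Hist1h2bg and Hist1h2bf fell by 2.29, 1.99 and 1.94 on the log2 scale. The call of Hist1h2bg was lost without NDP10.2, NPD9.2, NPD26, NPD28 or NPD30, and that of Hist1h2bf without NPD9.2, NPD26 or NPD27. Hist3h2ba fell by 2.12 (SE 0.58, edgeR adjusted p = 0.0199), but its litters overlapped: NPD3, at 5.46 CPM, was below NPD26, at 7.55 CPM. NPD4 was highest at 32.5 CPM, and the call was lost without NPD4 or without NPD28.

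Of the other H2B genes with a positive value, Hist2h2be had 7.43 ± 1.86 and 11.1 ± 5.50 CPM (SD, n = 4, log2 fold change 0.58 ± 0.43 SE, edgeR adjusted p = 0.345), and Hist1h2be 5.49 ± 3.28 and 6.84 ± 3.24 CPM (0.33 ± 0.54 SE, adjusted p = 0.689). Neither passed. The overlap with Hist1h1e given above may make the reads of Hist1h2be less certain too.

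**Figure D3:**
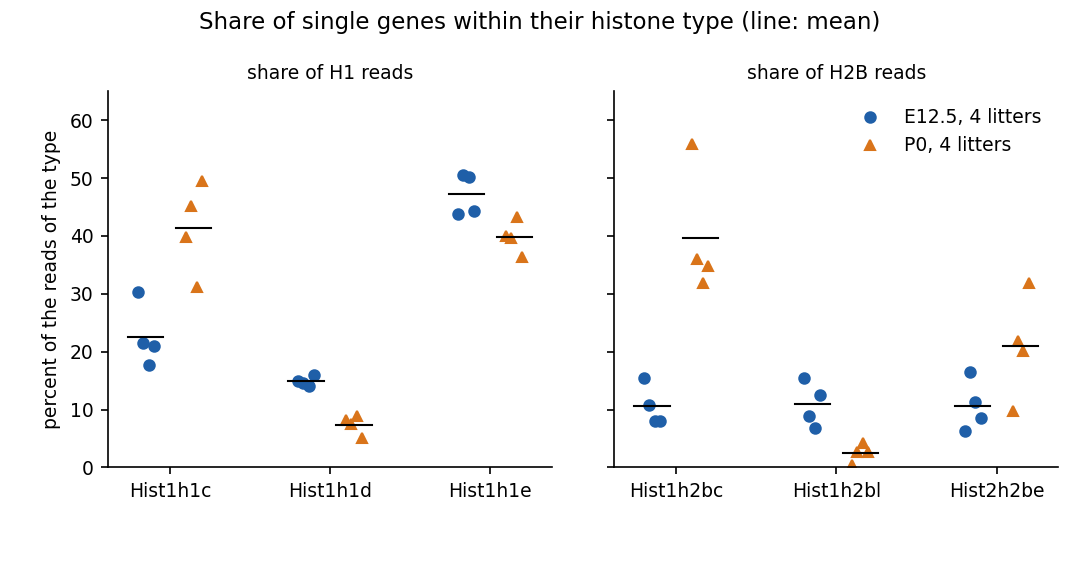
Share of the reads of its histone type, in percent (vertical axis), taken by 3 H1 genes (left) and 3 H2B genes (right) in each of the 4 litters per stage; black lines are means. Hist1h1c and Hist1h2bc lie higher in every P0 litter than in any E12.5 litter, and Hist1h1d, Hist1h1e and Hist1h2bl lower.

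Every tested H3 gene had a negative value, and 4 of 8 fell. The 3 with the most reads passed. Hist1h3e (chr13:23561534-23562369, minus strand) had 29.96, 20.3, 23.6 and 37.9 CPM at E12.5 and 7.55, 7.35, 13.3 and 7.58 CPM at P0. The stages were apart, and NPD28 stood above the other P0 litters (log2 fold change -1.63 ± 0.32 SE, edgeR adjusted p = 0.00352). Hist1h3c (chr13:23744973-23745602, minus strand) went from 29.96, 11.1, 20.4 and 40.6 CPM to 4.87, 3.17, 11.3 and 5.91 CPM, and NPD28 lay just above NPD3, the lowest E12.5 litter. Its log2 fold change was -2.0 ± 0.48 (SE, edgeR adjusted p = 0.00986). Hist1h3d fell by 1.72 and Hist1h3i by 1.32 on the log2 scale, the latter called among the fits without 1 litter only without NPD4 or NPD28. In Hist1h3i, 31.4% of the windows were unique. Hist1h3f, the least changed, had a log2 fold change of -1.16 ± 0.54 (SE, edgeR adjusted p = 0.134).

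Of the 9 H4 genes tested, 4 fell, and 8 had negative values. H4 protein is the same from most of these genes, but the transcripts differ in length and level. Hist1h4d (chr13:23581598-23582735, plus strand) held 49.9 ± 2.87% of H4 reads at E12.5 and 45.4 ± 3.11% at P0. It had 163, 67.9, 76.0 and 152 CPM at E12.5 and 41.2, 46.9, 67.6 and 46.9 CPM at P0. The gap between NPD3 and NPD28 was under 1 CPM. The log2 fold change was -1.18 ± 0.33 (SE, edgeR adjusted p = 0.0203), and the call was lost without NDP10.2, NPD9.2, NPD26 or NPD27. Without both NDP10.2 and NPD9.2 the log2 fold change was -0.55.

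Hist2h4 had 82.6, 45.5, 37.6 and 105 CPM at E12.5 and 30.2, 24.8, 42.3 and 44.6 CPM at P0, which overlap (log2 fold change -0.93 ± 0.35 SE, edgeR adjusted p = 0.0704); it passed without NPD4 and without NPD30. Hist4h4 lies outside the 3 larger clusters and fell by 1.11, at the edge of the threshold (SE 0.38, edgeR adjusted p = 0.0498), and among the 8 fits without 1 litter it was called only without NPD4. Hist1h4h had 9.67, 1.56, 2.90 and 9.59 CPM at E12.5 and 0.315, 1.44, 1.65 and 1.36 CPM at P0. It fell by 2.27 (SE 0.71, edgeR adjusted p = 0.0354), and without both NDP10.2 and NPD9.2 the log2 fold change was -0.94. The call was lost without either of them or without NPD26, NPD27 or NPD28. Hist1h4a fell by 1.72, and was called among the fits without 1 litter only without NPD3 or NPD28. Hist1h4i stayed between 4.25 and 9.10 CPM at E12.5 and between 5.89 and 7.35 CPM at P0 (log2 fold change 0.02 ± 0.36 SE, edgeR adjusted p = 0.974).

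**Figure D4:**
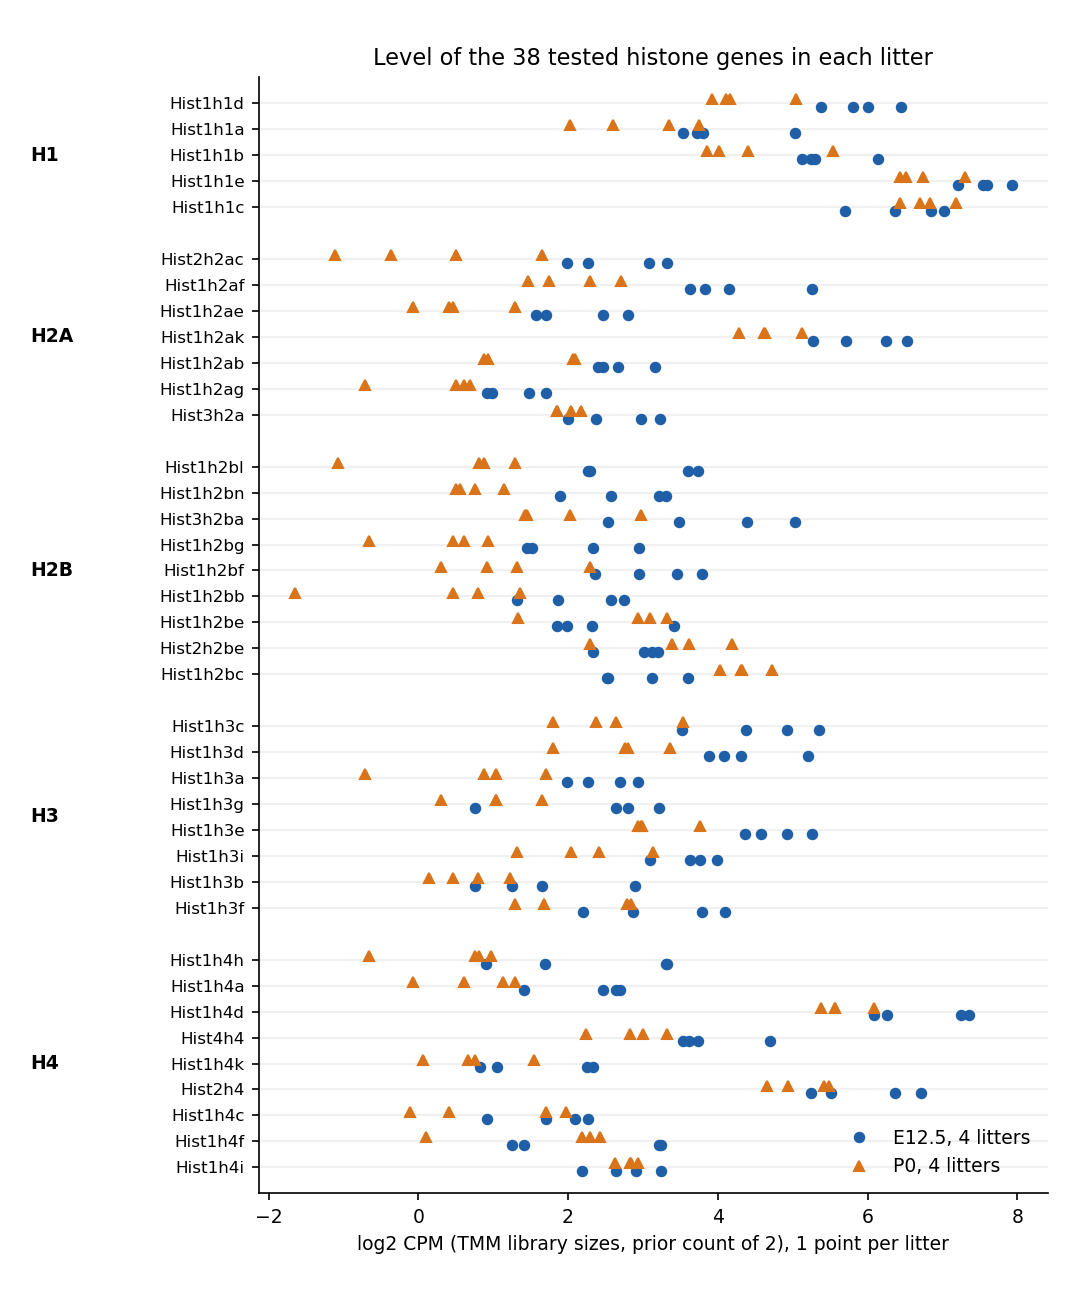
Log2 CPM of the 38 tested members in each litter (circles, E12.5; triangles, P0), grouped by histone type. In 17 genes all circles lie to the right of all triangles, in Hist1h2bc all lie to the left, and in 20 they overlap in CPM.

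Levels can be set side by side only per length. Among the 9 tested members whose gene model is of the same version in Gencode M21 and whose windows were at least 80% unique, Hist1h2ak led at E12.5, with 164 CPM per kilobase of exon, followed by Hist1h1b with 60.9 and Hist1h1c with 60.5. At P0 the order was Hist1h1c with 71.9 CPM per kilobase, Hist1h2ak with 65.2 and Hist1h1b with 32.7. Hist2h2be was lowest at E12.5, with 2.83 CPM per kilobase of its long transcript.

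Summed over all 64 members, the embryonic litters had 1068, 722, 686 and 1297 CPM and the newborn ones 425, 448, 668 and 528 CPM. The stages did not overlap, although NPD28 came close to NPD4. Summed H2A went from 114 ± 39.2 to 42.1 ± 10.6 CPM and H3 from 113 ± 43.0 to 36.9 ± 14.6 CPM (SD, n = 4), without overlap. Summed H4 went from 229 ± 96.9 to 111 ± 19.1 CPM, also without overlap. H1 sums, 412 ± 107 and 276 ± 68.0 CPM, overlapped, as did those of H2B, 74.9 ± 22.3 and 51.9 ± 4.32 CPM. The share of member reads on H2A ranged from 10.4% to 13.4% before birth and from 7.12% to 8.66% after it, and that on H3 from 9.71% to 12.9% and from 5.77% to 8.75%. The 5 members with a positive log2 fold change together took 12.9 ± 2.01% of member reads at E12.5 and 31.0 ± 6.30% at P0, a description of genes grouped by their direction.

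**Figure D5:**
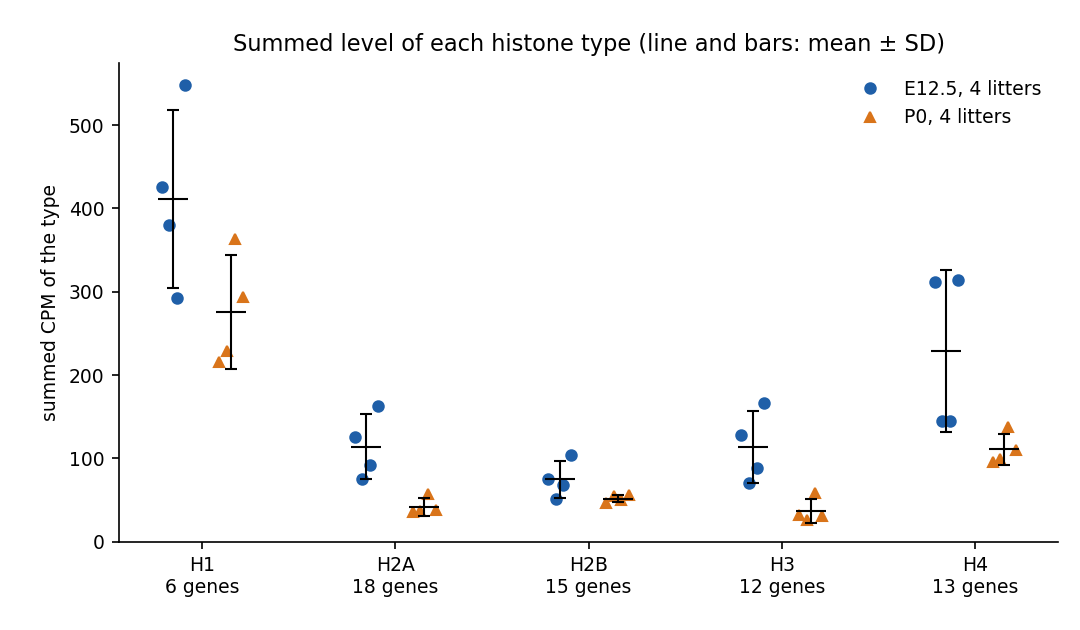
Summed CPM of each histone type (vertical axis) in the 4 litters of each stage, with mean ± SD in black. H2A, H3 and H4 separate the stages; H1 and H2B overlap, and at E12.5 the 2 highest litters of each type are NDP10.2 and NPD9.2.

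NDP10.2 or NPD9.2 was the highest E12.5 litter in 35 of the 38 tested members. These 2 litters also had the highest sums of primitive erythroid markers. The 3 genes Hbb-y, Hba-x and Hbb-bh1 summed to 16130 and 32820 CPM there, and to 8119 and 8559 CPM in NPD3 and NPD4. At P0 they summed to 2.12 to 7.07 CPM. Most of the E12.5 sums was Hbb-y, at 5855 to 27370 CPM. Hbb-bh1 was lowest of the E12.5 litters in NDP10.2, at 190 CPM against 306 to 473 CPM. The 6 definitive erythroid markers summed to 8742 and 16580 CPM in NDP10.2 and NPD9.2, 1942 to 2025 CPM in the other 2, and 361 to 1240 CPM at P0. Of these, Hba-a2 was lowest in NDP10.2, at 0.708 CPM against 229 to 787 CPM in the other E12.5 litters. At P0, NPD28 was the highest litter in 24 of the 38 members. It also had the highest sum of the 9 neutrophil granule markers, 5925 CPM against 716 to 895 CPM in the other P0 litters and 4.48 to 17.6 CPM at E12.5. The markers did not move together: Ngp, Camp, Ltf, S100a8 and S100a9 were highest of the P0 litters in NPD28. Mpo, Elane and Ctsg were lowest there (Mpo 22.8 CPM, against 42.15 to 76.9 CPM), and Prtn3 lay between. The S phase genes summed to 2751 CPM in NPD28, against 1252 to 1688 CPM in the other P0 litters and 1552 to 2137 CPM at E12.5. The 8 leukocyte markers summed to 483 to 5011 CPM at P0 and 49.0 to 155 CPM at E12.5, and all 8 were higher at P0. All 6 sclerotome markers were lower at P0, with sums of 115 to 186 CPM before and 3.30 to 13.3 CPM after birth. The 7 neural progenitor markers, 3 of 4 tested lower, had sums of 96.4 to 196 and 4.59 to 31.8 CPM. Most of the E12.5 sums was Nes, at 67.5 to 161 CPM, and Pax6 did not pass. Olig2 and Sox1, not tested, had higher means at P0 (0.153 and 1.99 CPM, and 1.10 and 2.76 CPM), with overlapping litters. Elane, one of the neutrophil granule markers, had no read at E12.5, and no other marker of these 6 lists was at 0 in all litters of a stage. Their part in the histone differences was not tested.

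Many H2A and H2B genes lie head to head, and 12 such pairs with starts under 1000 bases apart were found among the members. Both genes were tested in 3 of them. In Hist1h2ak and Hist1h2bn, with 296 bases between their starts, both fell, as did both Hist1h2ae and Hist1h2bg, with 176 bases. Hist2h2ac and Hist2h2be, 239 bases apart, had values of opposite sign: the first fell, and the second did not pass, at 0.58. Hist1h2bc, which rose, faces Hist1h2ac, 251 bases away, which had 61 reads in all and was not tested.

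Promoter windows of RefSeq genes (GRCm38.p6, 250 bases before to 50 after the start) were matched for 59 of the 64 members; Hist1h2bc, Hist1h3a, Hist1h3f, Hist2h2be and Hist2h4 were not matched. Letters were searched on both strands. CCAAT was found in all 47 windows of H1, H2A, H2B and H3 members and in 3 of 12 of H4, against 37.3% of the 32791 other promoters. TATAAA was in 35 of 59 (59.3%), against 13.5%. The octamer ATTTGCAT was in 7 of 18 H2A and 4 of 13 H2B windows and in none of the other types, against 1.7%. Windows of head-to-head partners can overlap, so 1 site may be counted for both genes. Both partners held the octamer in Hist1h2aa and Hist1h2ba, Hist1h2ae and Hist1h2bg, and Hist1h2ah and Hist1h2bk. AAACACA, known as the H1 box, was in 5 of 6 H1 windows, against 7.17%. Among members called lower, 17 of 19 held CCAAT and 13 of 19 TATAAA, and among those tested and not called, 11 of 14 and 8 of 14.

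The 170 bases before the start are shown for 4 members, 5′ to 3′ on the strand of the gene, with matches to these 4 motifs in capitals (CCAAT also as ATTGG on the other strand). Hist1h1c and Hist1h1e are an H1 gene that did not pass and one that fell, and both hold the H1 box and CCAAT at nearly the same distance from the start. Hist1h2bl and Hist2h2ac had the largest falls in H2B and H2A.
Hist1h1c (chr13:23738637-23738806, plus strand): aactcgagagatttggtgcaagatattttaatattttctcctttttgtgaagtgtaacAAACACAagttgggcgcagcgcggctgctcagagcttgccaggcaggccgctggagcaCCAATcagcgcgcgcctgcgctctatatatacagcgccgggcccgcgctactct
Hist1h1e (chr13:23622559-23622728, minus strand): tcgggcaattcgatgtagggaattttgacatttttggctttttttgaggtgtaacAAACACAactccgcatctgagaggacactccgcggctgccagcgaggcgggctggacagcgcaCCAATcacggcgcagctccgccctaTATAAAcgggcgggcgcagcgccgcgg
Hist1h2bl (chr13:21716184-21716353, minus strand): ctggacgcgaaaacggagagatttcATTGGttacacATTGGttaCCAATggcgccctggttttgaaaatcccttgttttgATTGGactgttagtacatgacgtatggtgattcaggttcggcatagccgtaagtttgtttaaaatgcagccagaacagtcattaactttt
Hist2h2ac (chr3:96220881-96221050, minus strand): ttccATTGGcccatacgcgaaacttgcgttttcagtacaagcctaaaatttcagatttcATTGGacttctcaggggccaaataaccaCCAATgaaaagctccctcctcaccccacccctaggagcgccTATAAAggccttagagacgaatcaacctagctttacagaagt

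The H1 box begins 112 bases before the start in Hist1h1c and 115 in Hist1h1e, and CCAAT 54 and 52. Hist1h1e also holds TATAAA, 27 bases before its start. Hist1h2bl has 4 matches to CCAAT and no TATAAA in this stretch, and Hist2h2ac has 3 and a TATAAA 42 bases before its start.

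Genes that work with these histones were compared next, in lists chosen with earlier results known. For the counts in each list, the shares over all genes tested were 12.0% lower and 16.0% higher at P0. Of 11 replacement histone genes, all tested, 4 were lower at P0, none was higher and 7 did not pass (median log2 fold change -0.44). H2afy2, which encodes a macroH2A, fell from 44.9 ± 5.50 to 8.79 ± 1.89 CPM (SD, n = 4, log2 fold change -2.35 ± 0.25 SE, edgeR adjusted p = 0.000188). H2afx, the H2A.X of the DNA damage response, fell by 1.59 (SE 0.32, edgeR adjusted p = 0.00391). The most abundant, H3f3b, which encodes H3.3, had 368 ± 81.5 and 296 ± 31.4 CPM (log2 fold change -0.31 ± 0.24 SE, edgeR adjusted p = 0.367). H3f3a, H2afz and H1f0 had log2 fold changes of 0.21, -0.30 and -0.45 and did not pass either.

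Of 16 genes for histone mRNA processing, 15 were tested, 1 was lower and 14 did not pass (median log2 fold change 0.14). Slbp, the stem-loop binding protein, had 43.5 ± 10.1 and 51.04 ± 6.61 CPM (SD, n = 4, log2 fold change 0.23 ± 0.23 SE, edgeR adjusted p = 0.506). Npat, the coactivator of histone genes, had 54.6 ± 6.99 and 46.0 ± 11.7 CPM (log2 fold change -0.25 ± 0.23 SE, edgeR adjusted p = 0.469). Tut4, a terminal uridylyltransferase, fell by 1.14 (SE 0.27, edgeR adjusted p = 0.00992). Rnu7, the U7 RNA that guides 3′ cleavage, had no read in any litter.

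Of 18 histone chaperone genes, Nasp and Chaf1b fell, Nap1l1 rose and 15 did not pass. Nap1l1 went from 252 ± 49.5 to 594 ± 348 CPM (SD, n = 4, log2 fold change 1.24 ± 0.37 SE, edgeR adjusted p = 0.0295), a call lost without any 1 of the E12.5 litters or without NPD30. Chaf1b fell by 1.12 (SE 0.32, edgeR adjusted p = 0.0229), a call lost without NPD9.2, NPD26 or NPD27.

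Of 32 S phase genes, 31 were tested, 2 fell, none rose and 29 did not pass (median log2 fold change -0.23). Tyms, which makes thymidylate, fell by 1.18 (SE 0.26, edgeR adjusted p = 0.00623). Cdk2, a kinase of S phase entry, fell by 0.74 (SE 0.23, edgeR adjusted p = 0.0348), a call lost without NPD3, NPD9.2, NPD26, NPD27 or NPD30. Mki67, a proliferation marker, went from 461 ± 85.3 to 556 ± 291 CPM (SD, n = 4, log2 fold change 0.27 ± 0.37 SE, edgeR adjusted p = 0.625), and its sign turned without NPD28. Pcna, the sliding clamp, had 37.4 ± 8.15 and 52.2 ± 10.9 CPM (log2 fold change 0.48 ± 0.25 SE, edgeR adjusted p = 0.18). The difference between the histone members and the S phase genes was not tested.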

How the data were processed

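Sequencing was of RNA from 4 litters at E12.5 and 4 at P0, the animals of a litter pooled; litters are the replicates. Libraries were made from total RNA with the TotalScript low-input kit; how cDNA was primed, on which recovery of mRNA without a poly(A) tail depends, is not given in the sources used here. The authors aligned single-end reads with STAR (version 2.4.0j in the submitters' processing notes) to GRCm38, used htseq-count on Gencode genes, and deposited the raw count of each gene in each sample, not normalized. Reads with several mapping places or on overlapping genes were not counted; whether counting used strand is not given in the sources used here. The members and gene lists were chosen with earlier results of these data known.

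Counts were tested in R 4.3.3 with edgeR 4.0.16: filterByExpr (minimum count 10, minimum total 15), TMM, robust quasi-likelihood F-test, Benjamini-Hochberg adjustment, calls at an adjusted p under 0.05. The SE is the log2 fold change over the square root of F. Log2 CPM per litter adds a prior count of 2. The code was tested on simulated data. There edgeR recovered 8 of 100 genes given a log2 change of 1, and 75 of 100 given a log2 change of 2. Genes that did not pass may therefore still differ between the stages. Alternatives used DESeq2 1.42.0, limma 3.58.1 (voom), other scalings, no filter, a fold over 2 and litters left out. Named were, per type, the 3 most abundant members, the largest rise and fall, members called against their type's majority, 8 set genes (Slbp, Npat, H2afz, H3f3a, H3f3b, H1f0, Pcna, Mki67) and, per list, the most abundant gene and 2 called genes of largest change; others named here were chosen after their values were seen. Of the gene IDs, 42462 of 43346 matched a symbol. Positions and transcripts are from Gencode M21 (GRCm38), later than the authors' annotation; 42 of 64 members have the same gene version in both. Hist1h2bh, Hist1h2bm and Hist2h2bb were not analysed here. P-values measure the spread between litters.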

Additional observations from a re-analysis of the deposited data

Results flagged for a closer look

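Values were looked at for a litter far from the other 3 of its stage, which chance alone gives in about 1 of 20 groups; 82 groups of 4 litters were examined and 5 were picked out. At P0, NPD28 stood above the rest for Hist1h3e (log2 CPM 3.77, against 2.94 to 2.98), for summed H2A (57.9 CPM, against 35.4 to 37.6) and for summed H3 (58.5 CPM, against 26.5 to 31.9). NPD26 stood below the rest for Hist1h4h (log2 CPM -0.66, against 0.75 to 0.98) and above them for H3f3b (log2 CPM 8.42, against 8.11 to 8.16).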

How the results depend on the processing

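The count of members lower at P0 was 19 as reported and 9 to 18 without 1 litter; with NDP10.2 and NPD9.2 both left out it was 2. DESeq2 size factors, library totals, and leaving out mitochondrial and hemoglobin genes each gave 19, DESeq2's Wald test 24, limma-voom 14, no filter 15 and a fold over 2 as well 18. Counting only members with at least 50% unique windows, an alternative chosen after seeing the data, gave 15. The count of higher members was 1 (Hist1h2bc) in each of these. The median log2 fold change of tested members stayed between -1.46 and -1.02. Signs of named genes that did not pass turned in these fits: Hist1h4i had -0.0068 without NDP10.2 and NPD9.2, -0.0033 without mitochondrial and hemoglobin genes, and -0.18 to 0.17 without 1 litter. Slbp had -0.065 and H3f3a -0.18 without NDP10.2 and NPD9.2. Without 1 litter, H3f3a ran from -0.034 (NDP10.2 out) to 0.50 and Mki67 from -0.11 (NPD28 out) to 0.51. The cause was not tested. Of the 26 members that did not pass the filter, 18 were tested with no filter, and the 8 with no read could not be. No paired analysis was possible because the labels give the litters of the 2 stages no shared numbers.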
